A study of Mus musculus with 20 samples.

Results

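The 37 genes of the mouse mitochondrial genome were followed through striatal RNA-seq of 20 male mice. Members were the rows whose Ensembl gene ID has a symbol starting with mt-, and they made up 37 of the 39179 rows: 13 protein-coding genes, 2 rRNA genes and 22 tRNA genes. The mice came from generation 17 of a breeding experiment that began from an intercross of 8 inbred strains: the High-Active line was selected for distance travelled in the home cage, and the Control line was bred without selection. At about 6.5 months of age, 5 mice of each line received amphetamine at 0.25 mg/kg and 5 received saline, and bilateral striatum was taken 2 hours after the injection. This gave 4 groups of 5, one for each line and injection, with each mouse called here by its animal number. There was 1 line of each kind, so selection and drift cannot be told apart in any line difference, and 4 of the 10 Control and 9 of the 10 High-Active mice shared both parents with another mouse of the set. The sire and dam labels give this sharing, whereas the study's methods describe the 10 mice of each line as coming from different families. Counts on genes ranged from 32388971 to 53710713 per mouse, with a median of 41703853.5.

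The mitochondrial genome is a small circle inherited from the mother. Both of its strands are transcribed into long precursors from promoters in the noncoding control region, and the tRNAs that lie between the larger genes are cut out to release the mRNAs and rRNAs. All of its proteins are subunits of the respiratory chain or of ATP synthase, the machinery that supplies most of the ATP of a neuron, and its rRNAs and tRNAs serve the ribosomes that make those proteins. Every other factor for copying, transcribing, processing and translating this genome is encoded in the nucleus.

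Of the 37 members, 28 lay on the plus strand and 9 on the minus strand of chrM (GRCm38). The minus-strand members were mt-Nd6 and 8 tRNA genes. The sequences of 4 tRNA genes are shown because their counts differed between the lines in opposite directions although the genes are of nearly the same size. Each is given 5′ to 3′ on its own strand, as in the GENCODE vM21 transcripts, and capitals in mt-Tw mark the bases that overlap mt-Nd2 on the same strand. mt-Tp, the proline tRNA gene, lies at chrM:15356-15422 on the minus strand beside the control region. mt-Ts1, a serine tRNA gene, lies at chrM:6870-6938 on the minus strand, with its end across from the end of mt-Co1. mt-Tq, the glutamine tRNA gene, lies at chrM:3772-3842 on the minus strand, and mt-Tw, the tryptophan tRNA gene, at chrM:4950-5016 on the plus strand.
mt-Tp: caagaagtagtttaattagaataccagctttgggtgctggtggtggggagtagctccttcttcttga
mt-Ts1: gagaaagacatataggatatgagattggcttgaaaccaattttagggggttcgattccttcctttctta
mt-Tq: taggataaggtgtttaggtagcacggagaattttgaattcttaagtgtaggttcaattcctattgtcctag
mt-Tw: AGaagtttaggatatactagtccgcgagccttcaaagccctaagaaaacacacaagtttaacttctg

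The mitochondrial genes together took 9.07% to 12.6% of all counts on genes, with a larger share in High-Active than in Control mice. In Control saline mice the share was 9.84% (mouse 411), 10.4% (448), 10.1% (469), 9.79% (477) and 9.85% (883). In Control amphetamine mice it was 9.40% (369), 9.67% (407), 9.07% (409), 9.17% (454) and 10.2% (457). These 10 Control mice averaged 9.76% ± 0.446 (SD, n = 10). In High-Active saline mice the share was 10.8% (197), 11.7% (483), 10.6% (499), 10.5% (871) and 11.4% (886), and in High-Active amphetamine mice it was 10.7% (192), 12.6% (415), 9.68% (487), 11.0% (872) and 10.3% (905). The High-Active mean was 10.9% ± 0.813 (SD, n = 10), which is 1.18 percentage points above Control against a pooled SD within groups of 0.664. All 5 High-Active saline mice lay above all 10 Control mice, whereas High-Active amphetamine mouse 487 lay below the Control median and mouse 905 within the Control range. The total is given without a test. The difference was 1.01 percentage points in saline mice alone and 1.35 in amphetamine mice alone.

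**Figure D1:**
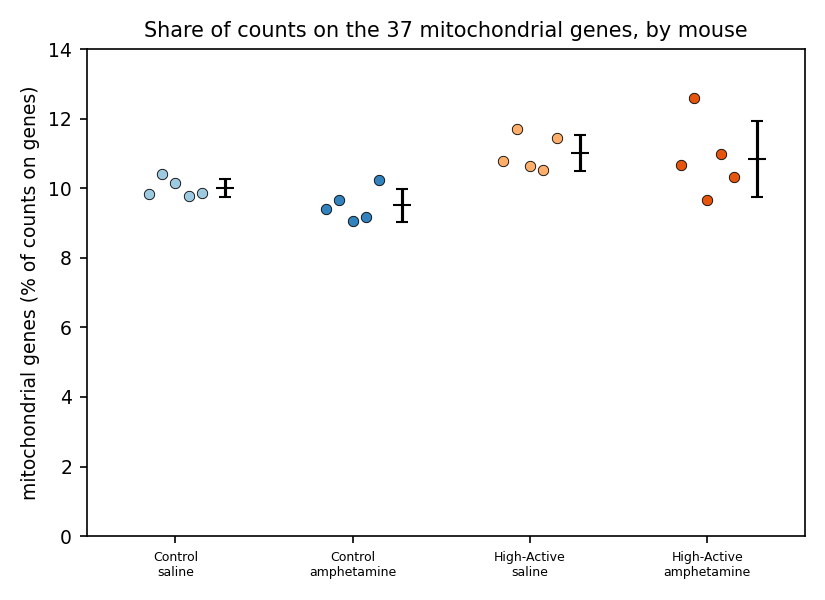
Share of counts on the 37 mitochondrial genes (vertical axis, percent of all counts on genes, from 0) in each mouse of the 4 groups, with the mean and SD of 5 mice beside the points. The High-Active saline mice sit between 10.5% and 11.7%, above every Control mouse, and High-Active amphetamine mice spread from 9.68% to 12.6%.

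Most of that share came from a few genes. mt-Co1, the catalytic subunit of cytochrome c oxidase (complex IV), was the most counted gene of all in the striatum, at 2.68% of counts averaged over the 20 mice. mt-Co3, mt-Atp6, mt-Co2, mt-Nd4, mt-Cytb, mt-Nd1, mt-Nd2, mt-Nd5 and mt-Rnr2 followed at ranks 2 to 10. The 3 complex IV genes held 45.1% ± 1.09 of the mitochondrial counts in Control and 45.0% ± 1.39 in High-Active mice (SD, n = 10 each). The 7 complex I genes, which encode core subunits of NADH dehydrogenase, held 29.2% ± 1.13 and 28.4% ± 0.870, and the 2 ATP synthase genes held 10.1% ± 0.432 and 9.78% ± 0.300. The 2 rRNA genes held 7.00% ± 1.01 in Control and 8.21% ± 0.979 in High-Active mice, and all 10 High-Active mice lay above the Control median for them. The 22 tRNA genes together held 0.0250% and 0.0256% of the mitochondrial counts.

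Per kilobase of gene, read counts scaled to library size (CPM) placed mt-Co1 first at 17343 ± 1672 (SD, n = 20) and mt-Nd6, the only protein-coding member on the minus strand, last of the tested larger genes at 211 ± 45.7. mt-Co1 exceeded the next gene, mt-Atp6 (14358 CPM per kilobase), in 20 of 20 mice. mt-Atp6 and mt-Co2 (14228) could not be ordered, each being the higher in 10 of 20 mice. mt-Co3 (12857) came next and lay below mt-Co2 in 19 of 20 mice, and mt-Nd1 (8427) and mt-Cytb (7795) followed, with mt-Nd1 the higher in 15 of 20. mt-Nd4 (6918) and mt-Nd2 (5667) each kept their place in every mouse. mt-Nd3 (3387) and mt-Rnr1 (3349), the small-subunit rRNA, changed places in 10 of 20 mice, and mt-Rnr2 (2984), the large-subunit rRNA, exceeded mt-Nd5 (2731) in 13 of 20. By their means, the rRNA genes sat below 9 of the protein-coding members in these libraries. mt-Atp8 (2330), a short accessory subunit of ATP synthase, was below mt-Nd5 in 17 of 20 mice.

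**Figure D2:**
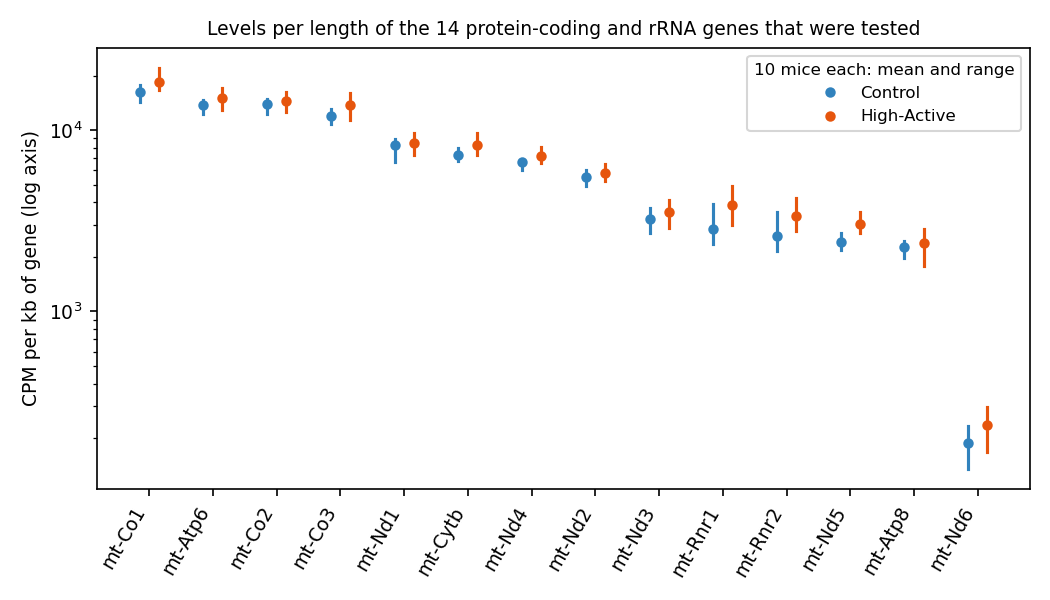
CPM per kilobase (vertical axis, log scale) of the 14 protein-coding and rRNA genes that passed the filter, ordered by their mean over 20 mice, with the mean (point) and the range (line) of the 10 Control and 10 High-Active mice. The levels run from 17343 for mt-Co1 to 211 for mt-Nd6, and the ranges of mt-Atp6 and mt-Co2, like those of mt-Nd3 and mt-Rnr1, overlap. They are not corrected for reads set aside as ambiguous or not unique.

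Between the lines, the ribosomal RNAs, mt-Nd5 and several other mRNAs, and 3 tRNA genes were higher in High-Active mice, and 1 tRNA gene, mt-Ts1, was lower. Genes were tested where they had more than 1 CPM in at least 3 mice, which 21 members passed: 12 protein-coding genes, both rRNA genes and 7 tRNA genes. By edgeR's quasi-likelihood test with Benjamini-Hochberg adjustment over all 14792 genes tested and a threshold of 0.1, 11 of the 21 members were called, 10 higher and 1 lower in High-Active. Over all genes tested, 14.5% were called, 7.63% higher and 6.9% lower. That share fell to 9.36% without High-Active amphetamine mouse 415, to 9.48% without Control saline mouse 883 and to 9.53% without High-Active saline mouse 871, where 9, 9 and 11 of the 21 members were called. The median log2 fold change (High-Active over Control) of the 21 members was 0.18 and 19 of the 21 were above 0, while the median over all genes tested was -0.00093. The 21 do not stand for all 37 members, since 16 were too low to enter.

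**Figure D3:**
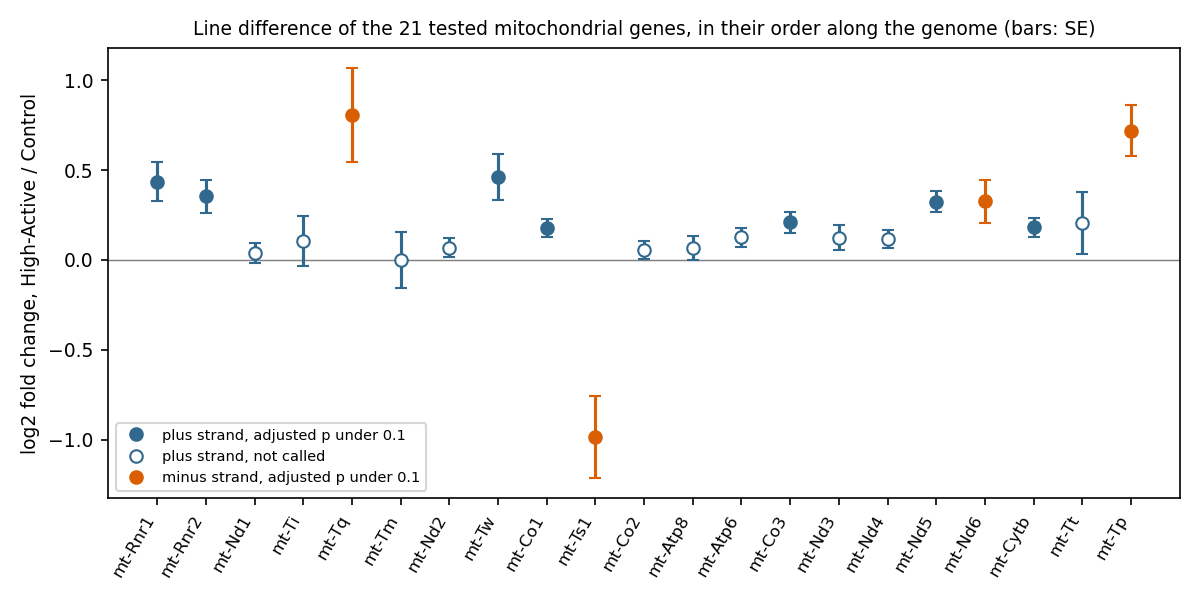
Log2 fold change between the lines (vertical axis, High-Active over Control) with its standard error for the 21 tested members, placed in their order along the genome. Filled points are the 11 called members, and among the minus-strand genes, in orange, mt-Tq, mt-Nd6 and mt-Tp lie above 0 and mt-Ts1 at -0.98.

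mt-Nd5, a proton-pumping core subunit of complex I (ENSMUSG00000064367, chrM:11742-13565, plus strand), had the smallest p of the members. Its share of counts was 0.410%, 0.496%, 0.416%, 0.469% and 0.426% in the Control saline mice 411, 448, 469, 477 and 883, and 0.454%, 0.441%, 0.397%, 0.425% and 0.489% in the Control amphetamine mice 369, 407, 409, 454 and 457. In High-Active saline mice 197, 483, 499, 871 and 886 it was 0.512%, 0.647%, 0.545%, 0.526% and 0.544%, and in High-Active amphetamine mice 192, 415, 487, 872 and 905 it was 0.597%, 0.612%, 0.529%, 0.492% and 0.536%. The lines overlapped in a single pair of mice: Control saline mouse 448 stood just above High-Active amphetamine mouse 872, and the other 9 High-Active mice exceeded every Control mouse. The log2 fold change was 0.32 (SE 0.0586, adjusted p = 0.00330 by edgeR's quasi-likelihood test), and it was also past the threshold among saline mice (0.33, adjusted p = 0.0543) and among amphetamine mice (0.32, adjusted p = 0.0897). Within saline mice 3.74% and within amphetamine mice 1.3% of all genes were called. The ratio of mt-Nd5 to mt-Nd1 counts, 2 complex I genes read from the same strand, was 0.559 ± 0.0620 in Control and 0.683 ± 0.0792 in High-Active mice (SD, n = 10 each).

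Both rRNA genes had a larger share of counts in High-Active mice. Together they held from 5.82% to 9.67% of the mitochondrial counts across mice. The study's methods do not describe how library preparation treated rRNA, and its part in the line difference was not tested. mt-Rnr1 (chrM:70-1024) took 0.238%, 0.372%, 0.258%, 0.301% and 0.231% of counts in Control saline mice 411, 448, 469, 477 and 883, and 0.226%, 0.260%, 0.225%, 0.279% and 0.326% in Control amphetamine mice 369, 407, 409, 454 and 457. It took 0.375%, 0.468%, 0.409%, 0.376% and 0.300% in High-Active saline mice 197, 483, 499, 871 and 886, and 0.373%, 0.440%, 0.285%, 0.314% and 0.343% in High-Active amphetamine mice 192, 415, 487, 872 and 905. All 10 High-Active mice stood above the Control median and 6 stood above every Control mouse, Control saline mouse 448 being the highest of its line. Its log2 fold change was 0.44 (SE 0.107, adjusted p = 0.0194 by edgeR's quasi-likelihood test). mt-Rnr2 (chrM:1094-2675) rose from 0.413% ± 0.0695 of counts in Control to 0.531% ± 0.0743 in High-Active mice (SD, n = 10 each), a log2 fold change of 0.36 (SE 0.0930, adjusted p = 0.0272). Within the mitochondrial counts alone, mt-Rnr1 held 2.78% ± 0.416 in Control and 3.36% ± 0.436 in High-Active mice.

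Among the remaining mRNAs, mt-Co1, mt-Co3 and mt-Cytb had smaller called changes, whereas that of mt-Nd6 was not smaller than that of mt-Nd5. mt-Co1 rose from 2.51% ± 0.149 to 2.84% ± 0.241 of counts (SD, n = 10 each), a log2 fold change of 0.18 with adjusted p = 0.0419 by edgeR's quasi-likelihood test. High-Active amphetamine mouse 415 was its highest library, at 3.41%. With the counts of mice of the same parents summed, mt-Co1 and mt-Co3 were no longer called, and neither were mt-Nd6, mt-Tw and mt-Tq. mt-Co3, another core subunit of complex IV, went from 0.934% ± 0.0641 to 1.08% ± 0.112 (log2 0.21, adjusted p = 0.0347), and mt-Cytb, the cytochrome b of complex III, from 0.836% ± 0.0478 to 0.948% ± 0.0848 (log2 0.18, adjusted p = 0.0493). mt-Nd6, a complex I subunit on the minus strand, went from 97.2 ± 17.3 to 122 ± 23.4 CPM (log2 0.33, SE 0.119, adjusted p = 0.0925), and this call was lost when any one of 12 of the 20 mice was left out. The other 7 tested mRNAs had positive log2 fold changes that were not called: 0.04 for mt-Nd1, 0.07 for mt-Nd2, 0.06 for mt-Co2, 0.07 for mt-Atp8, 0.13 for mt-Atp6, 0.12 for mt-Nd3 and 0.12 for mt-Nd4. With the total rising around it, mt-Co2, a complex IV subunit that receives electrons from cytochrome c, held 9.78% ± 0.334 of the mitochondrial counts in Control and 9.07% ± 0.288 in High-Active mice, with 8 of 10 High-Active mice below every Control mouse.

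The tRNA genes had few counts, from 20 to 571 per mouse for the 4 that differed. mt-Tp (ENSMUSG00000064372) had 1.66, 2.76, 2.43, 2.84 and 1.94 CPM in Control saline mice 411, 448, 469, 477 and 883, and 2.38, 1.26, 2.46, 2.83 and 2.81 CPM in Control amphetamine mice 369, 407, 409, 454 and 457. It had 4.64, 3.97, 3.20, 4.54 and 3.42 CPM in High-Active saline mice 197, 483, 499, 871 and 886, and 3.33, 5.00, 3.69, 3.92 and 2.96 CPM in High-Active amphetamine mice 192, 415, 487, 872 and 905. The lines did not overlap, and mt-Tp was the 1 member of 21 of which this held, against 0.25% of all genes tested. Its log2 fold change was 0.72 (SE 0.140, adjusted p = 0.00548 by edgeR's quasi-likelihood test). By the same test mt-Tp was called among saline mice alone but not among amphetamine mice alone. It was also not called with scores of cortical and oligodendrocyte markers (below) as covariates (adjusted p up to 0.151 in these fits).

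mt-Ts1 (ENSMUSG00000064352) went the other way. It had 4.26, 1.52, 3.16, 5.39 and 6.07 CPM in Control saline mice 411, 448, 469, 477 and 883, and 9.76, 8.33, 5.61, 5.39 and 6.71 CPM in Control amphetamine mice 369, 407, 409, 454 and 457. It had 1.68, 1.97, 2.26, 1.54 and 3.96 CPM in High-Active saline mice 197, 483, 499, 871 and 886, and 2.77, 3.77, 2.25, 2.92 and 4.56 CPM in High-Active amphetamine mice 192, 415, 487, 872 and 905. All 10 High-Active mice lay below the Control median, and Control saline mouse 448 was the lowest of all 20. Its log2 fold change was -0.98 (SE 0.228, adjusted p = 0.0147 by edgeR's quasi-likelihood test). Within a single treatment this test did not call mt-Ts1: among saline mice the value was -0.83 (adjusted p = 0.193) and among amphetamine mice -1.14 (adjusted p = 0.128).

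mt-Tq rose from 1.63 ± 0.750 to 2.90 ± 1.14 CPM (log2 0.81, SE 0.260, adjusted p = 0.0618 by edgeR's quasi-likelihood test), and leaving out Control saline mouse 411 or 883, High-Active amphetamine mouse 415 or High-Active saline mouse 197 ended that call, with adjusted p between 0.101 and 0.116. mt-Tw rose from 7.68 ± 1.96 to 10.6 ± 1.54 CPM (log2 0.46, SE 0.128, adjusted p = 0.0364). The 3 other tested tRNA genes were not called: mt-Ti (isoleucine) at 0.11, mt-Tm (methionine) at -0.00076 and mt-Tt (threonine) at 0.21 on the log2 scale. Of the 4 minus-strand genes tested, mt-Tp, mt-Tq and mt-Nd6 were thus higher and mt-Ts1 lower in High-Active mice.

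**Figure D4:**
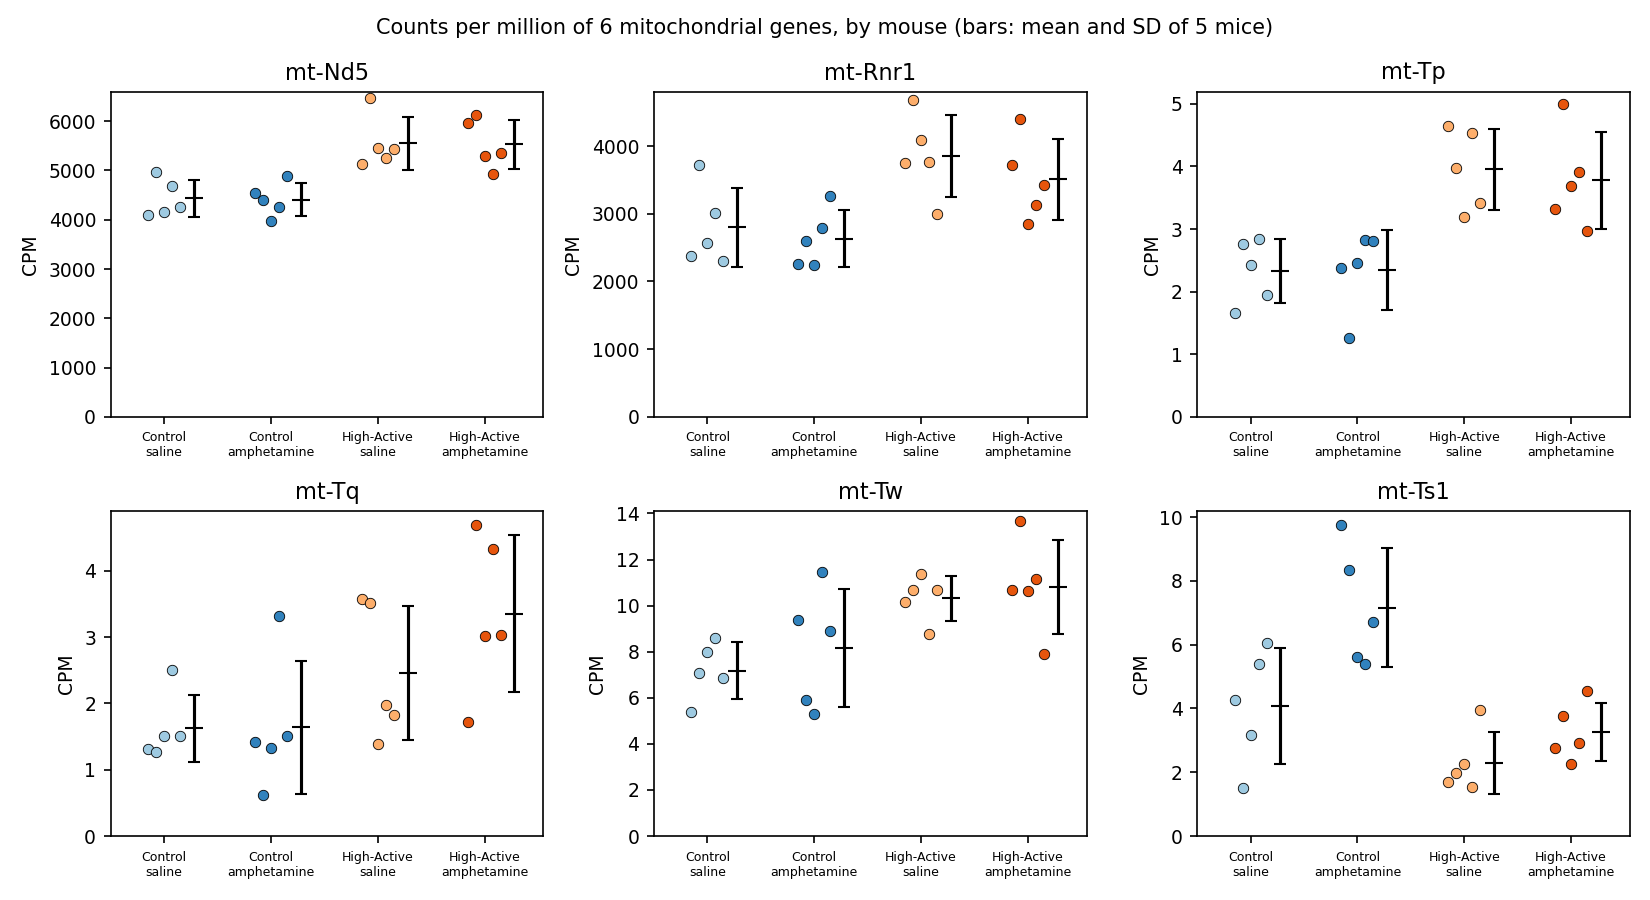
CPM (vertical axes, from 0) of 6 members in each mouse of the 4 groups, with the mean and SD of 5 mice beside the points. The lines do not overlap for mt-Tp, overlap in 1 pair of mice for mt-Nd5, and for mt-Ts1 the High-Active mice lie between 1.54 and 4.56 CPM against 1.52 to 9.76 in Control mice.

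Markers of other cell types were also called between the lines. In Control mice, the mean log2 CPM of 8 markers of cortical excitatory neurons ranged from 3.64 to 5.22, and in High-Active mice from 3.25 to 5.41. The line means were 4.70 and 4.10, and 2 of the 8 markers were called lower (Slc17a7 at -0.85 and Tbr1 at -0.69). None of the 8 was at 0 in any mouse. Of 7 oligodendrocyte markers, Mbp and Mobp were called higher, and the mean level was 8.40 in Control (8.05 to 8.72) and 8.62 in High-Active mice (8.41 to 8.86). Of 6 astrocyte markers, Aldh1l1 (0.32) and Gja1 (0.19) were called higher and Slc1a2 (-0.12) lower. Of 6 microglia markers, Aif1 (-0.42) and Csf1r (-0.14) were called lower, and of 5 red blood cell markers, Hba-a2 (2.59) was called higher, while no marker of endothelium or choroid plexus was called. These counts stand beside the 14.5% called over all genes. The 10 markers of striatal projection neurons, which define the labelled tissue, were high in every mouse (mean log2 CPM 8.15 to 8.86) and none was called. Their mean level was 8.63 in Control (8.46 to 8.755) and 8.49 in High-Active mice (8.15 to 8.86). All but Tac1 (0.07) had negative log2 fold changes, the lowest being Rgs9 at -0.29 (adjusted p = 0.1015 by edgeR's quasi-likelihood test). With the cortical and oligodendrocyte scores as covariates in the same fit, 2 of 21 members were called, mt-Nd5 (0.27, adjusted p = 0.0561) and mt-Ts1 (-0.96, adjusted p = 0.0824), and 3.22% of all genes. In bulk tissue, fewer cells of a type and less RNA per cell cannot be told apart.

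Mice of the same parents carry the mitochondrial DNA of the same dam. With the counts of such mice summed, giving 8 Control and 5 High-Active families, 6 members were called (mt-Rnr1, mt-Rnr2, mt-Nd5, mt-Cytb and mt-Tp higher, mt-Ts1 lower) and 4.12% of all genes. That fit had no term for treatment. The 2 Control mice with the most unlike mt-Ts1 values in a family, 407 (amphetamine) and 448 (saline), had 8.33 and 1.52 CPM. High-Active mice 415 (amphetamine) and 886 (saline), also of the same parents, had 3.77 and 3.96 CPM. High-Active siblings 197 (saline) and 905 (amphetamine) had 1.68 and 4.56 CPM. Control siblings 409 (amphetamine) and 411 (saline) had 5.61 and 4.26 CPM. The 3 High-Active mice 499 (saline), 871 (saline) and 872 (amphetamine) of 1 family held 10.5% to 11.0% of their counts on mitochondrial genes. The pair 483 (saline) and 487 (amphetamine) spanned 9.68% to 11.7%. Each of these pairs differed in injection, so spread within a family and treatment cannot be told apart in them.

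No member was called for amphetamine by edgeR's quasi-likelihood test. For the contrast of amphetamine with saline over both lines, 0 of 14792 genes (0%) and 0 of 21 members were called, with 1844 genes and 1 member at an unadjusted p under 0.05. The count over all genes rested on single mice, being 339 without High-Active amphetamine mouse 415, 128 without Control saline mouse 411, 33 without High-Active saline mouse 197, 20 without Control saline mouse 883 and 3 without Control amphetamine mouse 457, while 0 members were called without any one mouse. DESeq2 called 391 genes and 0 members, limma-voom with families as a block 0 genes, and the likelihood-ratio test with robust dispersions 458 genes and 1 member, mt-Ts1. mt-Ts1 was the member with the smallest p, at 4.08 ± 1.81 CPM in Control saline, 7.16 ± 1.86 in Control amphetamine, 2.28 ± 0.979 in High-Active saline and 3.25 ± 0.909 in High-Active amphetamine mice (SD, n = 5 each). Its log2 fold change for amphetamine was 0.67 (SE 0.227, unadjusted p = 0.00812, adjusted p = 0.245 by edgeR's quasi-likelihood test) and it was 0.71 with adjusted p = 0.0291 by the likelihood-ratio test. The next in order were mt-Co2 at -0.08 (adjusted p = 0.50) and mt-Nd3, a small complex I subunit, at -0.12 (adjusted p = 0.502). The cortical marker score also differed with treatment, at means of 4.45 in Control saline, 4.95 in Control amphetamine, 3.60 in High-Active saline and 4.60 in High-Active amphetamine mice, and with both scores as covariates the amphetamine value of mt-Ts1 was 0.43 (adjusted p = 0.778). The total mitochondrial share was 10.0% ± 0.265 in Control saline and 9.51% ± 0.470 in Control amphetamine mice, 4 of the 5 amphetamine mice lying below all saline mice, and 11.0% ± 0.528 and 10.9% ± 1.09 in the High-Active groups.

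The interaction of line and amphetamine called 0 of 14792 genes (0%) and 0 of 21 members by the same test, with 440 genes and 0 members at an unadjusted p under 0.05. DESeq2 and limma-voom called 0 genes, and the likelihood-ratio test 6 genes and 0 members. The smallest p among the members was that of mt-Atp8, whose interaction was 0.22 (SE 0.136, unadjusted p = 0.127, adjusted p = 1.00 by edgeR's quasi-likelihood test). mt-Nd2, a complex I core subunit, had 0.14 (SE 0.106) and mt-Tm had 0.39 (SE 0.322).

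Members that did not pass the filter were nearly all tRNA genes. All 8 tRNA genes with another gene of the same strand within 10 bases on both sides were at 0 in every mouse: mt-Tv, mt-Tl1, mt-Tk, mt-Tg, mt-Tr, mt-Th, mt-Ts2 and mt-Tl2. A count of 0 allows at most 3 counts, which is a share of up to 9.26e-06% in the shallowest library, counting error only. The 3 tRNA genes with no such neighbour on either side, mt-Tq, mt-Ts1 and mt-Tp, had 20 to 393 counts, and the 11 with 1 such side had 0 to 571, mt-Tf among them being at 0 in every mouse. Of the 11 tRNA genes with more than 3 counts in any mouse, 0 were flanked on both sides on their own strand, and 10 were when the strand was ignored. The distance of 10 bases was chosen after the counts were seen, so the grouping describes these counts and is no test of them. Library fragments averaged 200 bases in the labels, longer than any tRNA gene here, and a fragment that touches 2 genes can be set aside as ambiguous by a counter, so the counts on tRNA genes are not levels of mature tRNA. How the strand was set in counting is not given in the sources used here.

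**Figure D5:**
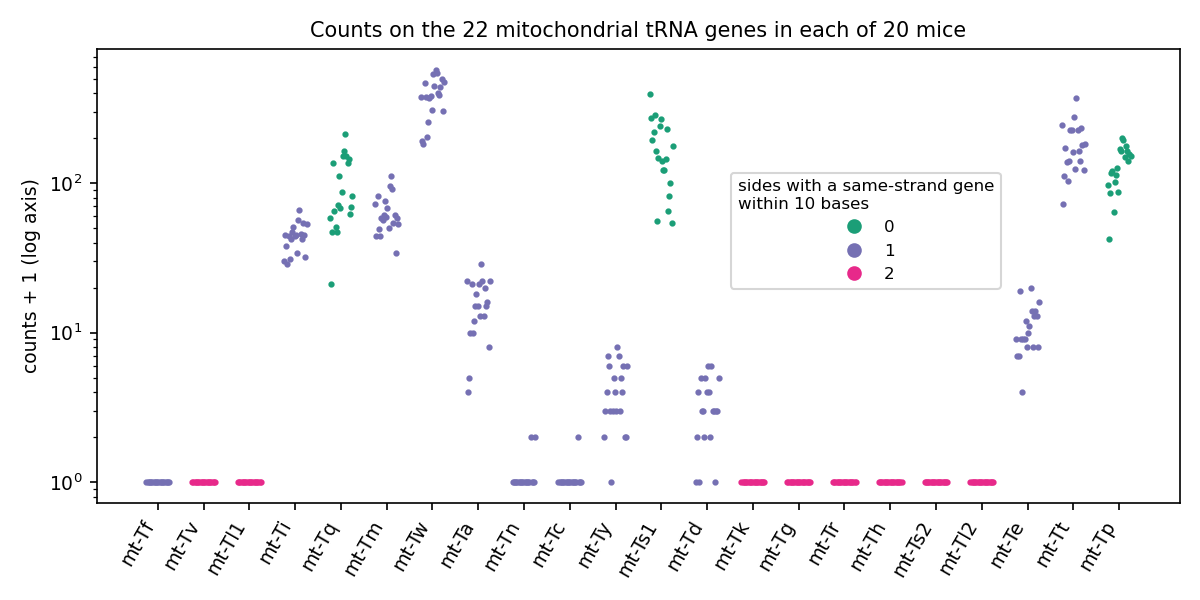
Counts plus 1 (vertical axis, log scale) on each of the 22 tRNA genes in 20 mice, in order along the genome, coloured by the number of sides with a same-strand gene within 10 bases. The 8 genes flanked on both sides are at 0 in every mouse, and mt-Tw reaches 571 counts.

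mt-Nd4l, a small core subunit of complex I, was the only protein-coding member that failed the filter, with 0 to 3 counts per mouse although mt-Nd4, which it overlaps by 7 bases, had 306406 to 509995. Its whole sequence is shown (chrM:9877-10173, plus strand, GENCODE vM21) with the run of 294 bases that is identical in the nuclear pseudogene Gm10222 (chr1:24612407-24612700) in capitals.
mt-Nd4l: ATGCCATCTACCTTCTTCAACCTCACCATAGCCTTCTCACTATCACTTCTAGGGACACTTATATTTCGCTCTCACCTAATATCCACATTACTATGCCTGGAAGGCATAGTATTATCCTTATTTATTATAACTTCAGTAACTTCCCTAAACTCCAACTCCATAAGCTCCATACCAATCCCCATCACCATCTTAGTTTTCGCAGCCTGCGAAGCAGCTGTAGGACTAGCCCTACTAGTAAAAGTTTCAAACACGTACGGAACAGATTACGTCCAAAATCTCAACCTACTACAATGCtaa
Of its 198 windows of 100 bases, the read length, 195 also occur in Gm10222, which is itself a row of the tables and had 1 to 10 counts. The matching pseudogenes of mt-Atp6, mt-Co2, mt-Co3 and mt-Nd3 on chromosome 1 share 97.6% to 99.9% of their windows, and those of mt-Nd4 and mt-Co1 share 60.8% and 26.3%, but none of these 6 is a row of the tables. They were looked up in GENCODE vM21, not in the Ensembl annotation that the study's methods name. Their absence as rows is therefore not a count of 0. Pseudogenes on chromosome 2 that are rows share 15.0% of the windows of mt-Co2, 5.53% of mt-Co1 and 3.19% of mt-Nd2. These chromosome 2 copies had 12 to 34, 21 to 59 and 0 to 5 counts. Reads that fit the mitochondrial and the nuclear copy equally may be set aside as not unique. mt-Atp6, mt-Co2, mt-Co3 and mt-Nd3 had at least 302814, 297575, 294481 and 35745 counts in every mouse. The part of equally fitting reads in the low count of mt-Nd4l was not tested. Among the 6 tested members with a copy on chromosome 1, mt-Co1 and mt-Co3 were called between the lines and mt-Co2, mt-Atp6, mt-Nd3 and mt-Nd4 were not. mt-Atp8 and mt-Atp6 share 43 bases on the same strand, so part of their reads may be set aside, and mt-Nd5 and mt-Nd6 overlap by 14 bases on opposite strands, in capitals in the last 60 bases of mt-Nd6 (chrM:13552-13611, minus strand), shown because both genes were called.
mt-Nd6: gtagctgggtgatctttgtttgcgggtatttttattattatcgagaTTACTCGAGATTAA

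Of 53 nuclear genes for the transcription, replication, RNA processing and translation of the mitochondrial genome, among them 5 regulators of nuclear transcription such as Ppargc1a, 4 were called higher and 3 lower between the lines, a share near the 14.5% called over all genes, with a median log2 fold change of -0.02. The higher ones were Mterf1a (0.33, adjusted p = 0.00725 by edgeR's quasi-likelihood test) and its close copy Mterf1b (0.50, adjusted p = 0.0630), which bind mitochondrial DNA at the end of the rRNA genes, and Fastkd2 (0.24, adjusted p = 0.00889) and Fastkd1 (0.17, adjusted p = 0.0739) of a family that acts on mitochondrial RNA. The reads of the 2 Mterf1 copies may be split between them, so their separate values are uncertain. The lower ones were Slirp (-0.17, adjusted p = 0.0530), which keeps mitochondrial mRNAs stable, Rexo2 (-0.10, adjusted p = 0.0489), which degrades short RNAs, and Ptcd3 (-0.09, adjusted p = 0.0456), of the small ribosomal subunit. Of 86 nuclear genes of the respiratory chain and ATP synthase, 82 were tested and 1 was called, the complex I subunit Ndufc1 (0.13, adjusted p = 0.0498), with a median of 0.01. Neither list had a called member for amphetamine or for the interaction.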

How the data were processed

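The deposited values are raw counts of reads per Ensembl gene, 1 table per mouse. Per the labels and the study's methods, libraries were made with a stranded kit from DNase-treated total RNA, sequenced as 100-base pairs, aligned to GRCm38 with TopHat2 2.0.10 and counted with HTSeq 0.6.1 by the authors; mode and strand of counting are not given in the sources used here. Reads HTSeq set aside as ambiguous (1.39% to 1.66%) or not unique (5.70% to 7.01%) were left out. Symbols, positions and sequences came from GENCODE vM21, whereas the study's methods name an Ensembl annotation of GRCm38.

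Genes with more than 1 CPM in at least 3 mice were fitted with edgeR 4.0.16 (R 4.3.3; TMM, 4 group means, glmQLFTest), with contrasts for line, amphetamine and their interaction and Benjamini-Hochberg adjustment over all genes tested at 0.1. limma 3.58.1, DESeq2 1.42.0 and the other settings were alternatives. Shares are percent of counts on genes. Members, lists and tests were chosen with earlier results of these data known. Named were all members, with statistics for called ones (at most 12), or the 3 smallest p where none was called, and called list genes (at most 8 per list). P-values rest on mice, of which many share parents.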

Additional observations from a re-analysis of the deposited data

Results flagged for a closer look

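In 9 of the 88 groups of 5 mice examined (21 tested members and the total, in 4 groups), 1 mouse stood apart from the other 4 by Dixon's ratio, where chance gives about 4.4. For mt-Nd1, Control amphetamine mouse 454 was low at 6427 CPM against 7788 to 8288 in the others, and High-Active saline mouse 499 was low at 7352 against 8300 to 8611. Control saline mouse 477 was high for mt-Tq at 2.50 CPM (others 1.27 to 1.51) and low for mt-Co2 at 9441 CPM (others 10032 to 10155). High-Active amphetamine mouse 415 was high for mt-Co1 at 34118 CPM (others 26280 to 28325), and it also had the highest total share of the 20 mice. High-Active saline mouse 483 was high for mt-Nd5 at 6468 CPM (others 5125 to 5449) and for mt-Tt at 5.67 CPM (others 3.52 to 4.12). Control amphetamine mouse 457 was high for mt-Cytb at 9145 CPM (others 7760 to 8101), and Control amphetamine mouse 407 was low for mt-Tp at 1.26 CPM (others 2.38 to 2.83). Leaving out any one mouse left mt-Nd5, mt-Tp, mt-Co1 and mt-Cytb called between the lines.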

How the results depend on the processing

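Of the 11 members called between the lines, 2 remained called with marker scores as covariates (beside 3.22% of all genes) and 6 with 1 summed library per pair of parents (4.12%). In saline mice alone 2 remained (3.74%), and in amphetamine mice alone 1 (1.3%). The last 3 settings use fewer samples, and the fit of summed libraries also had no term for treatment. Why calls were lost was not tested in any of these settings. The other 7 settings gave 8 to 13 called members, and leaving out 1 mouse gave 9 to 13. No called member changed direction in any of 341 values over these settings, of which 53 missed the threshold. mt-Nd5 passed in all of its own. mt-Nd6 missed it without Control amphetamine mouse 369, 407 or 409, Control saline mouse 411, 448, 469 or 883, High-Active amphetamine mouse 415, 872 or 905, or High-Active saline mouse 197 or 483 (adjusted p 0.109 to 0.154). For amphetamine, the likelihood-ratio test called 1 member, and no other setting called any. The line difference in the mitochondrial share lay between 0.996 and 1.32 percentage points without any one mouse. It lay between 0.968 and 1.48 over 5 other alternatives, which do not all use the same measure. The low end leaves out the 2 rRNA genes, and the high end is a percent of nuclear counts. Scaling by nuclear genes alone called 11 members and 14.5% of all genes. The labels carry no replicate numbers that pair mice. With families as a random block in limma-voom, 10 members (and 12.7% of all genes) were called between the lines and 0 members for amphetamine. Depth limits the tRNA genes, where 20 counts in a mouse leave wide counting error.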

Other observations

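Of the 9 minus-strand members, the 5 tRNA genes outside the filter stood at very different counts although they lie on the same precursor: mt-Ta had 3 to 28 counts per mouse, mt-Te 3 to 19, mt-Ty 0 to 7, and mt-Tn and mt-Tc at most 1. On the plus strand, mt-Td (aspartate) had 0 to 5. Within the mitochondrial counts, mt-Nd1 held 8.16% ± 0.564 in Control and 7.47% ± 0.467 in High-Active mice (SD, n = 10 each), 9 of 10 High-Active mice lying at or below the Control median, and mt-Nd5 held 4.53% ± 0.272 and 5.07% ± 0.373. The ratio of mt-Rnr2 to mt-Rnr1 counts was 1.53 ± 0.0619 in Control and 1.45 ± 0.0842 in High-Active mice.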
